A study of Mus musculus with 6 samples.

Results

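MHC class II genes and the genes that load peptide onto class II molecules were followed in mouse bone marrow-derived macrophages (BMDMs) cultured together with mEC25, which the series title calls a cancer cell line. The members were the 10 rows of the deposited table whose gene symbol is H2-Aa, H2-Ab1, H2-Eb1, Cd74, Ciita, H2-DMa, H2-DMb1, H2-DMb2, H2-Oa or Ifi30, of 56691 genes in all. In 3 libraries the BMDMs had been in contact with mEC25 cells (contact), and in 3 libraries they shared the culture without contact, per the titles across a transwell (transwell). All 6 libraries are labelled as bone marrow cells after M-CSF induction, the growth factor treatment that turns marrow cells into macrophages, and the series describes them as BMDMs sorted after the co-culture. No library of BMDMs without mEC25, or of mEC25 alone, was analysed here. The labels used here name no mouse strain, sex or age, and do not say by which marker the cells were sorted. They also leave unsaid whether each replicate was its own culture or animal, so the p-values are set against a spread between libraries that may be only technical.

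MHC class II molecules display peptides from engulfed or endosomal protein to helper T cells, and macrophages carry them at levels that rise strongly with interferon gamma. An alpha and a beta chain are joined in the endoplasmic reticulum, where the invariant chain plugs the peptide groove and steers the complex to endosomes. There proteases cut the invariant chain down, the peptide editor H2-DM exchanges its remnant for antigenic peptide, and H2-O restrains H2-DM. Transcription of nearly all of these genes depends on CIITA, a coactivator that does not bind DNA itself but docks onto factors sitting on a conserved pair of promoter elements, the X and Y boxes.

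The chains and the invariant chain were higher in contact than in transwell libraries, the H2-DM subunits and Ciita did not pass the test, and the thiol reductase gene Ifi30 was lower. Of 10 members, all passed the filter on low counts, 5 rose and 1 fell by edgeR's quasi-likelihood test at a Benjamini-Hochberg adjusted p under 0.05. Over the 14113 genes tested, 37.5% passed by the same rule, 21.4% being higher and 16.1% lower in contact. The median log2 change of the members was 0.41, against 0.03 over all genes tested. It was 0.27 without transwell replicate 2 and 0.25 after quantile normalization. Levels are given as FPKM, read counts scaled by exonic length and library total. They did not overlap between the groups for 7 of 10 members, 6 of them higher in contact, and for 51.2% of all genes tested, 35.8% being higher in contact. The members together took between 0.124% and 0.138% of counts in contact and between 0.079% and 0.0993% in transwell libraries.

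Library totals lay between 20911880 and 22563835 counts in contact and between 18173192 and 18895818 in transwell libraries. Of the genes called over the whole table, 57.1% were higher in contact. That share was 72.8% in limma on log2(FPKM + 1) and 41.2% after quantile normalization, and the median change of all genes moved from 0.03 to 0.14 on log2(FPKM + 0.1) and to -0.06 after quantile normalization. All 14 macrophage markers were tested and summed to between 17275 and 19113 FPKM in contact and between 18442 and 19647 FPKM in transwell libraries, with 5 higher and 5 lower. Among them Cd14, a lipopolysaccharide co-receptor gene, rose (log2 change 1.49 ± 0.07), and the Fc receptor gene Fcgr1 (-1.91 ± 0.07), Adgre1 (-1.20 ± 0.09) and Cd68 (-0.70 ± 0.08) fell. Most of the macrophage sum was 1 gene, Lyz2, at 12185 ± 838 against 13306 ± 484 FPKM (SD, n = 3), so the sum says little of the others. Epithelial markers, which the labelled cells should lack, summed to between 956 and 1685 FPKM in contact and between 5.34 and 6.21 FPKM in transwell libraries. All 18 of them that were tested, of 25 in the table, rose, the keratin gene Krt5 to 376 ± 120.2 FPKM (SD, n = 3). Most had almost no transwell counts and met the filter on low counts only through the contact libraries. The filter thus set their direction, and the count of rises is no separate result. The 10 tested mitochondrially encoded genes rose as well, with a median log2 change of 0.57. The part of either in the results below was not tested. In bulk RNA, a change in the number of cells of a type and a change in RNA per cell cannot be told apart.

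**Figure D1:**
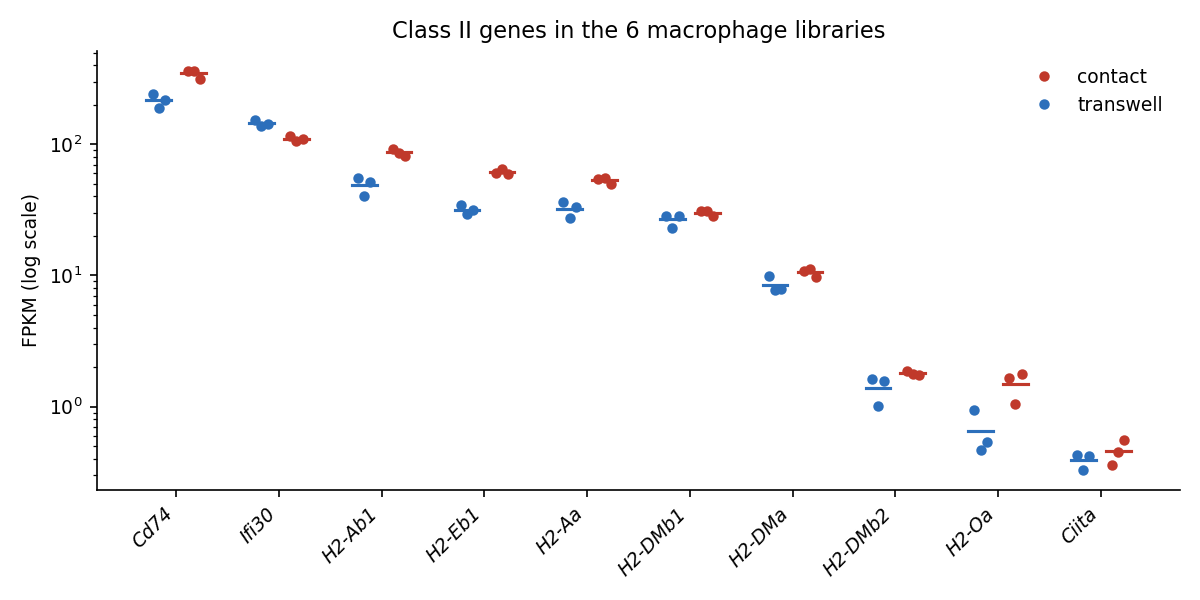
FPKM of the 10 members on a log axis, with 1 point for each of the 3 contact (red) and 3 transwell (blue) libraries and a bar at the group mean. Cd74 lies highest, at 315.9 to 363.47 FPKM in contact, Ciita lies lowest at 0.33 to 0.56 FPKM in all libraries, and Ifi30 is the member whose contact points all lie below its transwell points.

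H2-Eb1 encodes the beta chain of the I-E molecule and had the largest rise among the chains. Its level in contact replicates 1 to 3 was 60.3, 64.7 and 58.9 FPKM, and in transwell replicates 1 to 3 it was 34.3, 29.4 and 31.7 FPKM. Every contact library lay above every transwell library. The fitted change was 1.78-fold, or 0.83 ± 0.08 on the log2 scale (± SE, edgeR adjusted p = 4.8e-05). The gene (ENSMUSG00000060586) lies on the plus strand at chr17:34305867-34316674 on GRCm38 and is annotated as protein-coding. The span of an antisense gene, Gm20513, overlaps it. Of the 50-base words in annotated H2-Eb1 transcripts, 0 occur in another gene on either strand.

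H2-Ab1 and H2-Aa encode the beta and alpha chains of the I-A molecule. H2-Ab1 stood at 91.9, 86.1 and 81.7 FPKM in contact and at 54.9, 40.2 and 51.8 FPKM in transwell libraries. Its groups were parted by a wide gap, and the fitted change was 1.63-fold (log2 change 0.71 ± 0.12, edgeR adjusted p = 0.00111). H2-Aa stood at 53.9, 55.0 and 49.9 FPKM in contact and at 36.5, 27.5 and 33.1 FPKM in transwell libraries. These groups did not overlap either, and the change was 1.51-fold (log2 change 0.59 ± 0.11, edgeR adjusted p = 0.0018). In all 3 chain genes transwell replicate 2 was the lowest library. H2-Ab1 (ENSMUSG00000073421, plus strand) lies at chr17:34257689-34269419 and H2-Aa (ENSMUSG00000036594, minus strand) at chr17:34282744-34287823, and no other annotated gene overlaps either of them.

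The other chain genes of the region were at or near 0. H2-Ea, the alpha partner of H2-Eb1, had no count in any of the 6 libraries, and a count of 0 allows up to 3 counts in a library by counting error. GENCODE M21 lists it as H2-Ea-ps, a polymorphic pseudogene, and some mouse strains are known to lack a working copy. H2-Eb2, a second E beta gene, stood at 0.163 ± 0.0808 FPKM in contact and 0.0333 ± 0.0416 FPKM in transwell libraries (SD, n = 3) and was too low to be tested. Of the I-E pair, transcripts of the beta chain alone were thus counted.

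Cd74 encodes the invariant chain and was the most abundant member. It stood at 363, 362 and 316 FPKM in contact and at 242, 189.95 and 217 FPKM in transwell libraries. The lowest contact library lay above the highest transwell library, with a fitted change of 1.48-fold (log2 change 0.57 ± 0.10, edgeR adjusted p = 0.00174). Its level per length was above the summed level of the 3 chain genes in every library, those sums being 191 to 206 FPKM in contact and 97.1 to 126 FPKM in transwell libraries. Within a library, the ratio of H2-Eb1 to Cd74 was 0.166, 0.179 and 0.187 in contact and 0.142, 0.155 and 0.146 in transwell libraries. The ratio was higher in contact by 0.26 on the log2 scale, and its groups did not overlap. The exact two-sided permutation test gave p = 0.1, the smallest that 3 against 3 libraries allow. Cd74 (ENSMUSG00000024610) lies at chr18:60803848-60812652 on the plus strand, is protein-coding, and contains the microRNA gene Mir5107.

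The calls of H2-Aa, H2-Ab1, H2-Eb1, Cd74 and Ifi30 held under all 16 alternatives, each library left out in turn among them. The epithelial marker sums in contact replicates 1 to 3 were 1116, 1685 and 956 FPKM, so replicate 2 held the most and replicate 3 the least. H2-Eb1 and H2-Aa ranked in the same order over these 3 libraries and H2-Ab1 and Cd74 did not, being highest in replicate 1. In 1 alternative the listed epithelial and mitochondrial genes were left out of the totals and the scaling. The log2 changes were then 0.83 for H2-Eb1, 0.71 for H2-Ab1, 0.59 for H2-Aa and 0.57 for Cd74. That fit kept all class II reads, whichever cells they came from, so it cannot show their origin. Class II transcription in the cancer cells themselves was not measured apart from that of macrophages, and its part in the rises was not tested.

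The H2-DM subunits form the editor that frees the groove for antigenic peptide. H2-DMa, the alpha subunit, stood at 10.7, 11.3 and 9.67 FPKM in contact and at 9.92, 7.79 and 7.87 FPKM in transwell libraries. The groups overlapped through contact replicate 3 and transwell replicate 1. The log2 change was 0.19 ± 0.12 (edgeR adjusted p = 0.238), with a 95% interval from -0.07 to 0.45. Without transwell replicate 1 it was called higher, at 0.32 (edgeR adjusted p = 0.0235). H2-DMa (ENSMUSG00000037649, plus strand, chr17:34119541-34139101) overlaps 4 annotated genes, Brd2 on the other strand among them, and 8.434% of its 50-base words also occur in other genes.

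H2-DMb1 and H2-DMb2 encode beta subunits and are neighbouring copies. H2-DMb1 stood at 31.2, 31.1 and 28.2 FPKM in contact and at 28.6, 23.2 and 28.5 FPKM in transwell libraries, groups that overlapped. Its log2 change was 0.05 ± 0.10 (edgeR adjusted p = 0.725), with a 95% interval from -0.18 to 0.29. H2-DMb2 was far lower, at 1.88, 1.78 and 1.75 FPKM in contact and 1.61, 1.01 and 1.57 FPKM in transwell libraries. Its groups did not overlap, but the transwell spread was wide and the log2 change was 0.25 ± 0.25 (edgeR adjusted p = 0.463). The interval of H2-DMb2 reaches 0.80. The interval of H2-Aa, the chain with the smallest change, runs from 0.35 to 0.83 and overlaps that of H2-DMa, and differences between the H2-DM genes and the chains were not tested. The copies share sequence: 22.652% of the 50-base words in annotated H2-DMb1 transcripts also occur in H2-DMb2, so how their reads were divided by the authors' counting is uncertain. They lie at chr17:34153072-34160230 (H2-DMb1, ENSMUSG00000079547) and chr17:34143307-34151555 (H2-DMb2, ENSMUSG00000037548), both on the plus strand and protein-coding.

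H2-Oa encodes the alpha subunit of H2-O, the inhibitor of H2-DM, which is best known from B cells. Its level was low, at 1.64, 1.05 and 1.76 FPKM in contact and 0.94, 0.47 and 0.54 FPKM in transwell libraries. This rests on 52, 31 and 55 counts in contact and 25, 12 and 14 counts in transwell libraries. The groups were parted narrowly, with contact replicate 2 close to transwell replicate 1. H2-Oa rose 2.10-fold (log2 change 1.07 ± 0.36, edgeR adjusted p = 0.0417, 95% interval 0.26 to 1.89), the widest interval of the members. The call ended in DESeq2 (log2 change 1.05, adjusted p = 0.0736) and without contact replicate 1 (0.99, edgeR adjusted p = 0.124) or 3 (0.93, adjusted p = 0.125). It also ended without transwell replicate 2 (0.85, edgeR adjusted p = 0.121) or 3 (0.95, adjusted p = 0.141), and after quantile normalization (0.32, limma adjusted p = 0.144). It was called under 9 of 15 alternatives, over which the adjusted p ran from 0.0149 to 0.144.

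The partner subunit gene H2-Ob stood at 0.163 ± 0.0404 FPKM in contact and 0.0833 ± 0.0808 FPKM in transwell libraries (SD, n = 3; log2 change 0.88 ± 0.62, edgeR adjusted p = 0.31). H2-Ob had 17, 1 and 7 counts in transwell libraries and met the filter on low counts only through the contact libraries. The ratio of H2-Oa to H2-DMa, inhibitor to editor, was 0.153, 0.0933 and 0.182 in contact and 0.0948, 0.0603 and 0.0686 in transwell libraries. The groups overlapped, and the difference of 0.91 on the log2 scale gave p = 0.2 in the exact two-sided permutation test. With 1 FPKM added to both genes the difference was 0.31. H2-Oa (ENSMUSG00000024334, plus strand, chr17:34092340-34095234) shares 15.475% of its 50-base words with BC051537, an antisense gene that overlaps it, so its counts may hold reads of that gene.

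Ifi30 encodes a lysosomal thiol reductase, known as GILT, that opens disulfide bonds of antigens before they are bound by class II molecules. It stood at 115, 106 and 109.85 FPKM in contact and at 153, 138 and 142 FPKM in transwell libraries. Every contact library lay below every transwell library. The log2 change was -0.50 ± 0.08 (edgeR adjusted p = 6.9e-04), to 0.705 of the transwell level. Alternatives gave log2 changes from -0.57 to -0.38. Ifi30 (ENSMUSG00000031838) lies outside the class II region, at chr8:70762774-70766663 on the minus strand, and GENCODE M21 gives it the type processed transcript. It overlaps 6330537M06Rik on the other strand.

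Ciita encodes the coactivator of class II transcription. Its transcripts were scarce, with 77, 90 and 119 counts in contact and 77, 57 and 75 counts in transwell libraries. On the FPKM scale that was 0.36, 0.45 and 0.56 in contact and 0.43, 0.33 and 0.42 in transwell libraries, with overlapping groups. The log2 change was 0.10 ± 0.23 (edgeR adjusted p = 0.77), and its 95% interval ran from 0.752-fold to 1.53-fold. That interval holds the 1.51-fold change of H2-Aa and the 1.48-fold change of Cd74, so a change of that size is not excluded for Ciita. Ciita is known to be transcribed from several promoters, which gene-level counts do not separate. It lies at chr16:10480059-10528418 on the plus strand (ENSMUSG00000022504) and overlaps Dexi on the other strand.

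**Figure D2:**
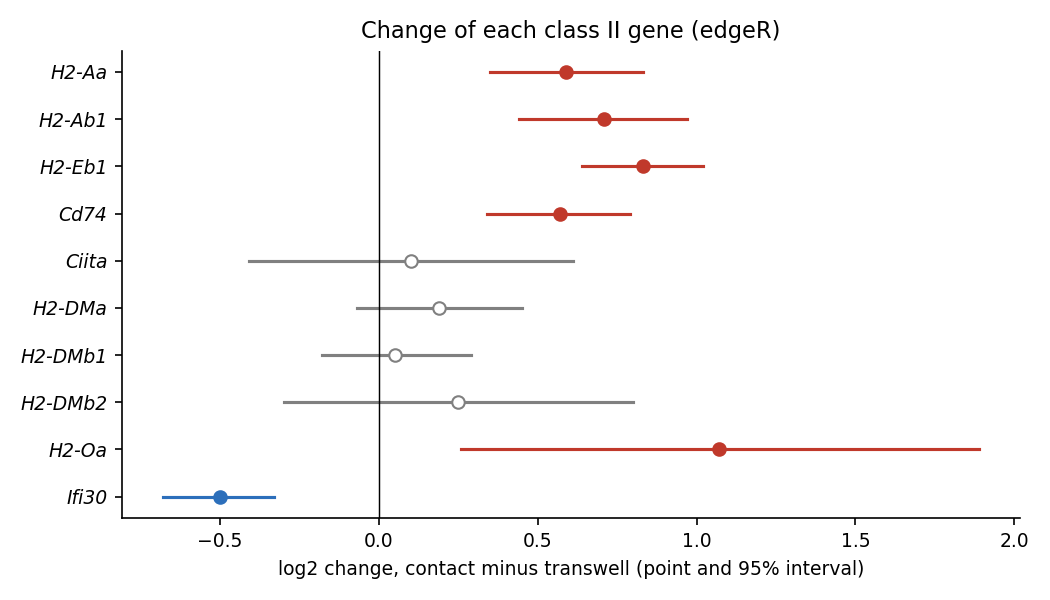
Fitted log2 change of each member, contact minus transwell, with its 95% interval; filled points passed the edgeR test (red higher, blue lower) and open grey points did not. The 3 chain genes and Cd74 lie between 0.57 and 0.83, Ifi30 lies at -0.50, and H2-Oa has the widest interval, from 0.26 to 1.89.

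RefSeq promoter sequences on GRCm38.p6 were at hand for 7 of 10 members, and not for H2-Ab1, Cd74 and Ciita. They are shown because the X and Y boxes through which CIITA acts can be read in them. Below, the first and second lines give the 250 bases before the RefSeq start of the chain genes that rose, on the gene's own strand, and the third those of Ifi30, which fell. The last lines give the stretch around the boxes in H2-Oa and H2-DMb2. Capitals mark AAC, part of the X box, and GATTGG, the Y box with its inverted CCAAT.
H2-Eb1, chr17:34305617-34305866, plus strand: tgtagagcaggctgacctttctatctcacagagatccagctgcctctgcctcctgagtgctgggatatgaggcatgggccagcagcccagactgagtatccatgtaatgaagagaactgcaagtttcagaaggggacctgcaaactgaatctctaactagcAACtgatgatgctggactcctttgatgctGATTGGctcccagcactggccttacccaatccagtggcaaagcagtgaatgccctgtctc
H2-Aa, chr17:34287824-34288073, minus strand: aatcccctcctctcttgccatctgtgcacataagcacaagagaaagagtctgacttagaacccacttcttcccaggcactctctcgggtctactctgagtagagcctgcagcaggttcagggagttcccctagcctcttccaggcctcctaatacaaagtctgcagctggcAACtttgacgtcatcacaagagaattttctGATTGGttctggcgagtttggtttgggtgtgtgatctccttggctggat
Ifi30, chr8:70766664-70766913, minus strand: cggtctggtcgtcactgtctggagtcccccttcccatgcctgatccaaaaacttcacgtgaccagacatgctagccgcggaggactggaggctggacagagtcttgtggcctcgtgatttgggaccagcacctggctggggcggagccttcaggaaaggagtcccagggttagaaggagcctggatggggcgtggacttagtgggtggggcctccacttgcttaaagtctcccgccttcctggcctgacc
H2-Oa, chr17:34092290-34092355, plus strand: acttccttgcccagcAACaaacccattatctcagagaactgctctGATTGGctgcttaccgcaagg
H2-DMb2, chr17:34145113-34145178, plus strand: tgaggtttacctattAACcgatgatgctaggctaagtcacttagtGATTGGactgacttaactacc

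In H2-Aa, H2-Oa, H2-DMb1 and H2-DMb2 exactly 27 bases lay between AAC and GATTGG, and in H2-Eb1 26 bases did. The pair thus stood at nearly the same spacing in 5 of the 7 members with a sequence, and in H2-Eb2 (26 bases) as well. The Y box began 49 bases before the start in H2-Aa, 60 in H2-Eb1, 44 in H2-Oa, 62 in H2-DMb1 and 91 in H2-DMb2. AAC and GATTGG at either spacing, searched on both strands with any bases between, occurred in 166 of 32851 promoters of 300 bases, or 0.505%. The motif was written after these sequences had been read. The inverted CCAAT inside it is common, since CCAAT on either strand was present in 37.4% of all promoters. The members with the boxes include H2-Aa and H2-Eb1, which rose, and H2-DMb1 and H2-DMb2, which did not pass the test. The Ifi30 stretch and the first of 2 H2-DMa starts held neither CCAAT nor the spaced pair, which says only that these letters are not in those windows. The second H2-DMa start held CCAAT without the spaced pair. In H2-Aa, TGACG, a core of the cyclic AMP response element, lies just downstream of AAC and occurs there on both strands, and 20.8% of all promoters hold it.

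The class II region of chromosome 17 also carries genes of MHC class I antigen processing, between H2-DMb1 and H2-Ob. From H2-Oa to H2-Eb2 there were 14 protein-coding genes, of which 13 were tested. The 4 class I processing genes fell, namely the peptide transporter genes Tap1 (log2 change -1.19 ± 0.08) and Tap2 (-0.43 ± 0.09) and the immunoproteasome genes Psmb8 (-1.12 ± 0.07) and Psmb9 (-0.56 ± 0.09), at edgeR adjusted p from 3.2e-06 to 0.00554. On one side of them stand the H2-DM genes, which did not pass the test, and H2-Oa, which was called higher. On the other stand H2-Ob, which was not called, the chains, which rose, and H2-Eb2, which was not tested. Brd2, a bromodomain gene beside H2-DMa, stood at 30.5 ± 1.06 against 27.7 ± 0.978 FPKM (edgeR adjusted p = 0.844).

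**Figure D3:**
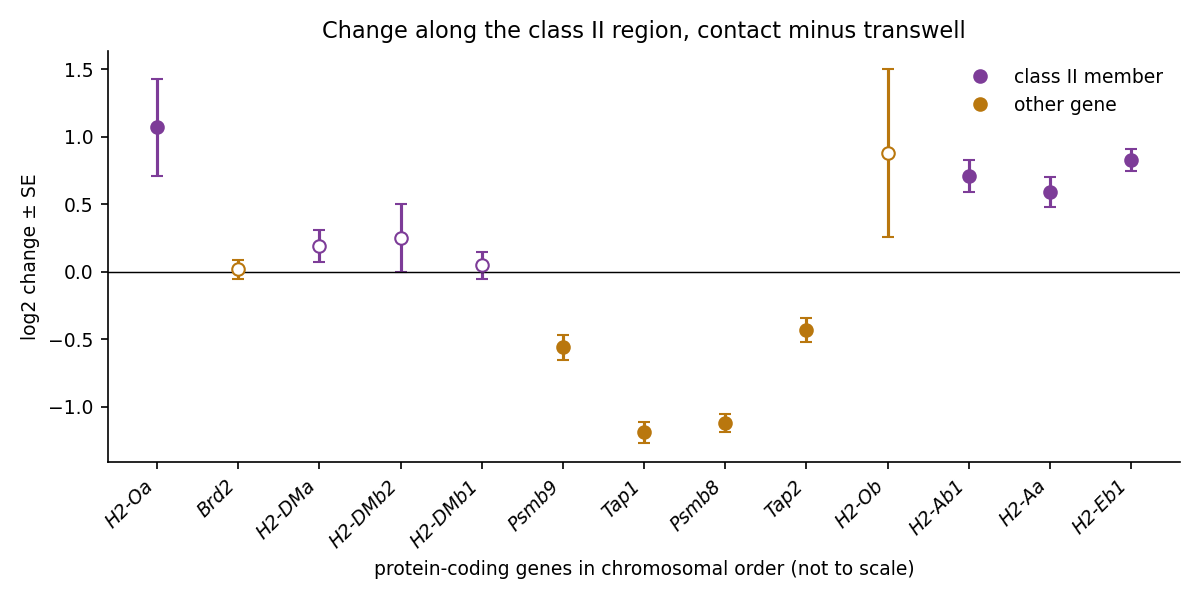
Log2 change with its standard error for the 13 tested protein-coding genes from H2-Oa to H2-Eb1, in chromosomal order and not to scale, with class II members in purple and other genes in brown; filled points passed the edgeR test. The class I processing genes between H2-DMb1 and H2-Ob lie below 0, down to -1.19, and the 3 chain genes to their right lie between 0.59 and 0.83.

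All 14 genes of the MHC class I list, these 4 among them, fell, with a median log2 change of -0.59. They include the heavy chain genes H2-K1 (711 ± 21.9 against 974 ± 57.5 FPKM) and H2-D1 (1292 ± 25.8 against 1814 ± 146 FPKM), which belong to a family of similar copies, and B2m, the gene of the class I light chain (-0.70 ± 0.07, edgeR adjusted p = 5.9e-05). The chaperone genes Calr (-1.06 ± 0.07) and Tapbp (-0.62 ± 0.08) and the proteasome activator gene Psme2 (-0.73 ± 0.08) of the loading pathway fell with them. The ratio of H2-Ab1 to H2-K1 within a library was 0.128, 0.118 and 0.119 in contact and 0.0528, 0.0432 and 0.0544 in transwell libraries. The ratio was 2.44-fold higher in contact libraries, with no overlap between groups and p = 0.1 in the exact two-sided permutation test, again the smallest possible. Nlrc5, the relative of CIITA that drives class I genes, fell from 6.63 ± 0.692 to 3.60 ± 0.351 FPKM (SD, n = 3; log2 change -0.99 ± 0.11, edgeR adjusted p = 8.2e-05).

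Of 14 genes of class II transcription, 3 rose, 2 fell and 9 did not pass the test. The called share was close to that over all genes tested, 37.5%, which also stands beside the list counts below. Rfx5, the DNA-binding subunit of the X box factor RFX, rose from 1.82 ± 0.219 to 3.09 ± 0.133 FPKM (SD, n = 3; log2 change 0.65 ± 0.12, edgeR adjusted p = 0.00204). Its partner genes were not called, Rfxank at a log2 change of -0.08 ± 0.14 and Rfxap at 0.13 ± 0.12. Nfyb, a subunit of the Y box factor NF-Y, rose (0.45 ± 0.09, edgeR adjusted p = 0.0039). Prdm1, the gene of BLIMP-1, a repressor of Ciita, rose from 6.26 ± 0.889 to 13.7 ± 0.876 FPKM (log2 change 1.02 ± 0.11), and Irf8, a myeloid transcription factor gene, fell (-0.41 ± 0.07). The other fall in this list was Nlrc5, given above with the class I genes.

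The interferon gamma route, which is known to switch on Ciita, showed 1 rise and 1 fall among 10 genes tested. Ifng itself was at 0 to 0.04 FPKM in all 6 libraries and was too low to be tested. Irf1, a transcription factor gene of the route, stood at 21.4 ± 1.82 against 19.6 ± 1.07 FPKM (edgeR adjusted p = 0.909). Ptpn2, a phosphatase gene that restrains the pathway, rose (0.54 ± 0.11), while the receptor genes Ifngr1 (0.25 ± 0.09, edgeR adjusted p = 0.0622) and Ifngr2 (0.11 ± 0.06, adjusted p = 0.239) and the feedback gene Socs1 (-0.18 ± 0.19, adjusted p = 0.514) did not pass the test.

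Endosomal proteases cut antigen and invariant chain. Of 11 genes of endosomal processing, 2 rose, 4 fell and 5 did not pass the test. Ctss, the gene of cathepsin S, which makes the last cuts in the invariant chain, stood at 3551 ± 68.4 against 2934 ± 33.4 FPKM (SD, n = 3; log2 change 0.16 ± 0.06, edgeR adjusted p = 0.0677). Ctsl (-0.17 ± 0.06, edgeR adjusted p = 0.0626), Lgmn, the legumain gene (0.05 ± 0.07, adjusted p = 0.61), and Sppl2a, whose protease clears the invariant chain stub (-0.06 ± 0.13, adjusted p = 0.74), were not called. Ctsz (-0.58 ± 0.08), Ctsd (-0.35 ± 0.08) and Cst3, the gene of the protease inhibitor cystatin C (-0.36 ± 0.07), fell. Ctsc (0.44 ± 0.08) and the scarce Ctse (0.517 ± 0.0651 against 0.15 ± 0.05 FPKM) rose. Ctse had 12, 6 and 9 counts in transwell libraries and met the filter only through the contact libraries.

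Class II molecules at the surface are turned over through ubiquitin. Marchf1, the gene of the ligase that marks class II and CD86 for removal, stood at 21.8 ± 4.01 against 17.3 ± 3.56 FPKM with overlapping groups (SD, n = 3; edgeR adjusted p = 0.321). Cd83, whose product opposes that ligase, rose from 1.84 ± 0.225 to 6.02 ± 0.473 FPKM (log2 change 1.59 ± 0.14, edgeR adjusted p = 2.1e-05). Of 10 genes of surface turnover, 4 rose and 3 fell. The others that rose were tetraspanin genes, Cd82 (0.85 ± 0.09), Cd81 (0.79 ± 0.11) and Cd9 (0.76 ± 0.09), whose products cluster class II in the membrane. Ap2m1, an endocytic adaptor gene, fell (-0.49 ± 0.08). So did Marchf8, a second Marchf gene of the list (-0.26 ± 0.08, edgeR adjusted p = 0.0335).

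The costimulatory genes Cd80 and Cd86, whose products give the T cell its second signal beside class II, rose with larger fitted changes than the chains. Cd80 went from 4.62 ± 0.327 to 16.3 ± 0.232 FPKM (SD, n = 3; log2 change 1.70 ± 0.09, edgeR adjusted p = 1.1e-06) and Cd86 from 4.13 ± 0.461 to 14.3 ± 0.0551 FPKM (1.68 ± 0.10, adjusted p = 2.3e-06). In both, every contact library lay above every transwell library, and their 95% intervals, from 1.51 to 1.90 and from 1.46 to 1.90, lie above that of H2-Eb1, 0.64 to 1.02. Of 7 costimulation genes tested, 4 rose, Icosl (0.89 ± 0.12) and the adhesion gene Icam1 (0.61 ± 0.09) among them. Tnfsf4, the gene of OX40 ligand, was scarce and fell (0.42 ± 0.177 against 1.44 ± 0.181 FPKM, log2 change -1.88 ± 0.34). Tnfsf4 had 11, 15 and 25 counts in contact libraries and met the filter only through the transwell libraries, where it was higher. Cd40 did not pass the test (0.24 ± 0.11, edgeR adjusted p = 0.114).

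**Figure D4:**
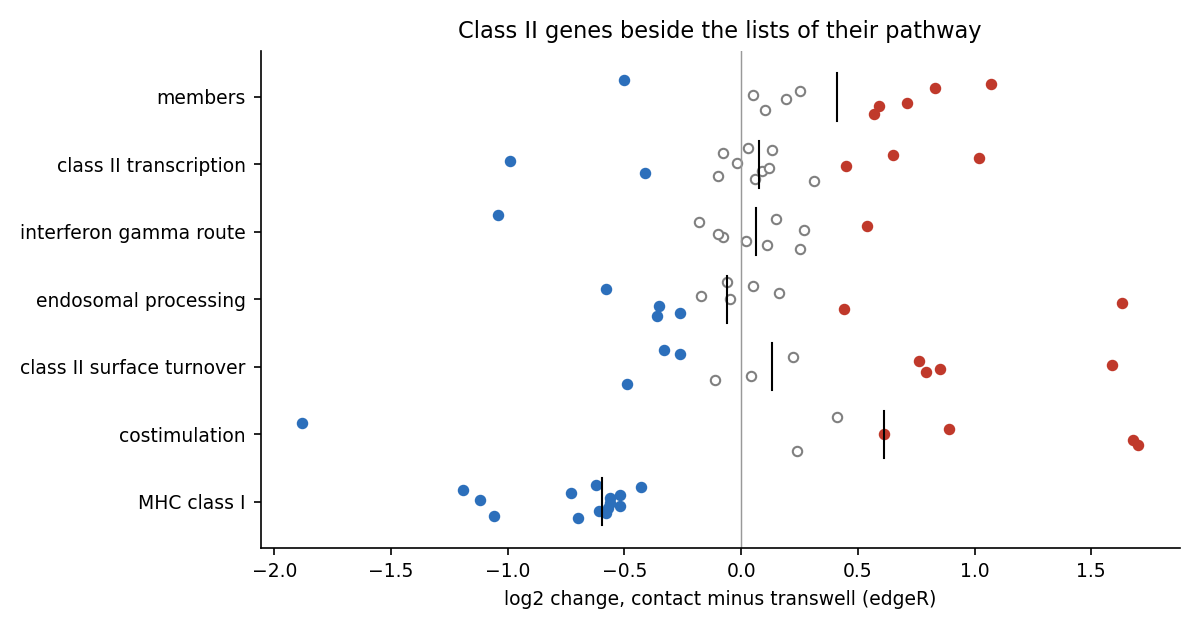
Log2 changes of the tested genes in the class II members and 6 lists of their pathway, contact minus transwell, with 1 point per gene and a vertical bar at the list's median; filled points passed the edgeR test (red higher, blue lower). The medians are 0.41 for the members, 0.61 for costimulation and -0.59 for MHC class I, whose 14 genes all lie below 0.

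Other immune cells, among them dendritic cells and B cells, which carry class II, were looked for through their markers. Of 12 dendritic cell markers, 8 were under 1 FPKM in every library, Flt3 reaching at most 0.17 FPKM and Zbtb46 0.06 FPKM. Their sum was between 17.8 and 19.7 FPKM in contact and between 15.5 and 18.6 FPKM in transwell libraries. Of 6 tested, Itgax, which macrophages also express, and Kit rose, and Batf3 and Clec10a fell. B cell markers summed to between 11.5 and 13.8 FPKM in contact and between 15.7 and 20.8 FPKM in transwell libraries, 7 of 10 were under 1 FPKM in every library, and the 3 tested, Cd79b, Ighm and Cd22, fell. T and NK cell markers summed to between 5.26 and 7.45 FPKM in contact and between 2.61 and 3.77 FPKM in transwell libraries, with Cd3e at most 0.08 FPKM. Cd4, at 4.72 ± 1.08 against 1.76 ± 0.15 FPKM (SD, n = 3), was the largest single part of that sum in every library. It was the only T and NK marker of 2 tested to be called. The other, Nkg7, was not called (0.52 ± 0.43, edgeR adjusted p = 0.39), and 8 of 10 markers were under 1 FPKM in every library.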

How the data were processed

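The authors deposited raw read counts and FPKM per Ensembl gene for 6 libraries, per the file headers. Total RNA was taken with Trizol and made into mRNA-seq libraries, per the labels. GRCm38 and mm10 stand in the submitters' processing notes. For aligner, counter, annotation and strand setting, the sources used here give nothing. Of FPKM values with a count above 100, 99.93% lay within 1% of the value computed from count, exonic length and library total. Positions were taken from GENCODE M21 by gene ID, since the table's own coordinates differ from that build, and promoter sequences from RefSeq (GRCm38.p6).

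Counts were filtered with filterByExpr (minimum count 10), scaled with TMM and compared by edgeR's quasi-likelihood test over all genes, two-sided, with Benjamini-Hochberg adjustment and no replicate term (edgeR 4.0.16, limma 3.58.1, DESeq2 1.42.0, R 4.3.3). Log2 changes are contact minus transwell, with standard errors taken from the change and its F statistic. Intervals cover 95%. Within-library ratios of FPKM were compared by exact permutation (SciPy 1.17.1). The test was checked on simulated counts, where it made 9 false calls. When a simulated difference was 1.5-fold, the test found 34 out of 67 such genes, so differences of that size can be missed. It found 44 out of 67 when the difference was 2-fold, and 63 out of 66 when it was 4-fold. No pair of replicates agreed within sampling noise, with a chi-square of at least 6.376 per degree of freedom. Shared sequence was measured as 50-base words of GENCODE M21 transcripts found in any other gene. Alternatives were other scalings, filters, tools and pseudocounts (0.1 and 1 FPKM), a replicate block and each library left out.

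The members and lists were chosen with earlier results of these data known. All members are named, with fixed genes of 13 other lists and up to 4 more per list with the largest called changes, except that epithelial and mitochondrial genes are given mostly as sums and counts. Tap2, Psmb9, Brd2, Flt3, Zbtb46, Cd3e and Marchf8 were named after their values were seen. Some genes of the lists are counted but not reported by name here. Figures were drawn with matplotlib 3.10.9.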

Additional observations from a re-analysis of the deposited data

How the results depend on the processing

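Over 16 alternatives between 4 and 6 members were called higher and 1 lower, and between 3579 and 5917 genes were called in all. The members' median log2 change was 0.53 on log2(FPKM + 0.1), 0.25 after quantile normalization, 0.60 among genes with mean FPKM of at least 1, 0.47 with mean transwell FPKM of at least 1 and 0.37 without a filter. The filters on FPKM removed Ciita, and the transwell one H2-Oa too. With each library left out, the median ran from 0.27 to 0.52. Genes that were not called turned negative in places: Ciita after quantile normalization (-0.20) and without contact replicate 3 (-0.08) or transwell replicate 2 (-0.04), H2-DMb1 without transwell replicate 2 (-0.07), and H2-DMb2 after quantile normalization (-0.01). With each library left out in turn, Ciita ran from -0.08 to 0.25 and H2-DMb1 from -0.07 to 0.11. The cause was not tested. With 1 FPKM added to both genes the log2 difference in the ratio of H2-Oa to H2-DMa was 0.31.

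Same-numbered libraries did not deviate together (correlations over genes of -0.0828, -0.445 and 0.0557), so the numbers were not taken as pairs. With the replicate block 5124 genes were called in place of 5286, and no call of a member changed. Depth limits Ciita, H2-DMb2 and H2-Oa most, with 209, 136 and 51 transwell counts in all.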

Other observations

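Among 6484 genes with a mean of at least 5 FPKM, the 5 whose centred log2(FPKM + 1) profile over the 6 libraries lay nearest to the mean profile of H2-Aa, H2-Ab1 and H2-Eb1 were Smim3, Cd9, Bhlhe40, Cd81 and Gm10074. Their root mean square differences from it were 0.0371, 0.0379, 0.0495, 0.0528 and 0.063 on the log2 scale. Cd74 came 10th by this measure (0.0746), H2-DMa stood at rank 949 and H2-DMb1 at rank 1588. Smim3, a gene for a small membrane protein, went from 5.93 ± 0.695 to 11.5 ± 0.77 FPKM (SD, n = 3; log2 change 0.83 ± 0.10, edgeR adjusted p = 1.9e-04). Bhlhe40, a transcription factor gene, went from 4.61 ± 0.815 to 8.95 ± 0.412 FPKM (log2 change 0.84 ± 0.13, edgeR adjusted p = 6.7e-04). Gm10074 had 54 transwell counts in all and was not called (edgeR adjusted p = 0.065). These are descriptions over 6 libraries that share 1 contrast.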
